A study of Homo sapiens with 21 samples.

Results

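The 32 genes described here encode proteins that fold, move and degrade polypeptides at the endoplasmic reticulum (ER), together with sensors and transcription factors of the unfolded protein response. They were chosen by gene name from the 58735 genes of the deposited count table. They comprise 11 luminal chaperones and cofactors, 6 genes of disulfide formation, 4 genes of translocation and export, 8 genes of ER-associated degradation, and 3 genes for sensors and transcription factors. Of these, 31 were among the 16699 genes with enough counts to be tested. DERL3, a member of the derlin family of degradation channels, had 0 to 2 counts per library and was not tested.

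Messenger RNA was measured by sequencing in cells labelled HepG2, the name of an established human liver cancer line. Cells were kept for 24 h in serum-free DMEM with coumarin, a plant benzopyrone, at 0.001, 0.01, 0.1, 1, 10 or 100 µM, and the untreated group (0 µM) received the same change to serum-free medium. Each of the 7 groups had 3 libraries, which the labels call biological replicates, and total counts were 26984563 to 43375429 per library. No genotype, transgene or second agent is named in the labels, and all groups come from 1 cell line. Untreated replicates 2 and 3 stood apart by their TMM scaling factors, 1.04 and 1.043, against 0.972 to 1.018 in the other libraries, and results against 0 µM are given with that in view. The label did not match the markers of its tissue. Of 12 hepatocyte markers, ALB, APOC3, TTR, RBP4 and FGB had no count in any library and none reached a mean of 1 CPM (counts per 1000000 of the scaled library); their summed level was 0.0334 to 0.0658 CPM in untreated libraries and 0 to 0.174 CPM at 100 µM. Of 6 epithelial markers, 3 (KRT8, KRT18, KRT7) exceeded 1 CPM, while KRT19, EPCAM and CDH1 were near 0; the sum was 4186 to 4659 CPM in untreated libraries and 3315 to 3403 CPM at 100 µM. Of 5 mesenchymal markers, 4 exceeded 1 CPM and COL1A2 was near 0, with sums of 1587 to 1674 CPM untreated and 1381 to 1428 CPM at 100 µM. Sums of 3 leukocyte and 3 endothelial markers were at most 0.394 and 1.22 CPM per library. The part of these marker differences in the results was not tested, and in bulk RNA fewer cells of a type and less RNA per cell cannot be told apart.

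Proteins bound for secretion or for membranes enter the ER through the SEC61 channel, are folded by chaperones such as BiP (HSPA5) and by disulfide isomerases, and leave in COPII vesicles. Chains that fail to fold are drawn back out by a membrane complex built on SEL1L and the ubiquitin ligase SYVN1, and are destroyed by the proteasome. Unfolded chains are sensed by IRE1α (ERN1), ATF6 and PERK. IRE1α splices XBP1 mRNA into the template of a transcription factor, and ATF6 is cleaved into one. Both factors are known to act through the ER stress response elements ERSE and ERSE-II in the promoters of chaperone and degradation genes. Hepatocytes are known for heavy protein secretion and an extensive ER.

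The upstream sequences are shown because ERSE precedes members that rose, that fell and that did not pass at 100 µM against 0 µM (HSPA5, CALR, CRELD2 and ERO1B). ERSE-II precedes HYOU1 and HERPUD1, which rose, and SDF2L1, which did not pass. It was found before no member that fell, of which PDIA3 and SEC24D had no window. Promoter windows of 300 bases from RefSeq (build GRCh38.p14) were found for 28 of the 32 members, not for PDIA3, SEC24D, DERL1 or DERL3. Both strands were searched for ERSE (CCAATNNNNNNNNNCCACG), ERSE-II (ATTGGNCCACG, which holds the same outer blocks as ERSE with one of them turned round), the core of the XBP1 element UPRE (TGACGTGG) and the core of the ATF4 element (TGATGNAAT). ERSE was in 27 of 35116 windows (0.0769%) and in windows of 8 of the 28 members: HSPA5, HSP90B1, CALR, CANX, CRELD2, PDIA6, ERO1B and XBP1. ERSE-II was in 19 windows (0.0541%), among them those of HYOU1, SDF2L1 and HERPUD1. The UPRE core was in 256 windows (0.729%) and in that of 1 member, HYOU1, where it overlaps an ERSE-II match, and the ATF4 core was in 348 windows (0.991%) and in none of the members'. A match describes letters in this window and shows no binding. The stretches below read 5′ to 3′ on the strand of the gene, stop where GENCODE 29 annotates an exon, and have the matches in capitals.
HERPUD1 (rose; chr16:56931892-56932047, plus strand; ERSE-II): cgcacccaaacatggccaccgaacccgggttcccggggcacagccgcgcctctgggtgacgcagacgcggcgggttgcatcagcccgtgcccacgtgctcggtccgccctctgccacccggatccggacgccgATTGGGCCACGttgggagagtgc
XBP1 (rose; chr22:28800598-28800682, minus strand; ERSE): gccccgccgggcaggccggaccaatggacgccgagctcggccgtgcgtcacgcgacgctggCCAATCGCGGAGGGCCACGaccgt
PDIA6 (fell; chr2:10812845-10813035, minus strand; ERSE): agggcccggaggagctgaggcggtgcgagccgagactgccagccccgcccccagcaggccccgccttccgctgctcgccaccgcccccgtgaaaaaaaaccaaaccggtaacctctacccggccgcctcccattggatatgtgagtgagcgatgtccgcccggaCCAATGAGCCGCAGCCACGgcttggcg
HSPA5 (did not pass; chr9:125241344-125241593, minus strand; ERSE): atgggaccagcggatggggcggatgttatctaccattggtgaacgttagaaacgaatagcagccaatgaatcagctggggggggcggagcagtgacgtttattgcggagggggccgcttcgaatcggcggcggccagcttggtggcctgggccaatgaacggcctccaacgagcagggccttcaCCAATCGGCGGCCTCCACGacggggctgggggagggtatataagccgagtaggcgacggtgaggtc
HSP90B1, which fell, holds ERSE at chr12:103930216-103930234 on the strand of the gene and at chr12:103930321-103930339 on the opposite strand. Both lie in an annotated exon of a longer HSP90B1 transcript, so only the matches are printed, each on its own strand.
HSP90B1 first match: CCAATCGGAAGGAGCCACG
HSP90B1 second match: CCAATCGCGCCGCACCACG

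Levels can be compared between genes only per length, for which the deposited FPKM (fragments per kilobase of gene, scaled to depth) were used. Among the 31 tested members, mean FPKM over the 21 libraries ran from 366 for CALR, a lectin chaperone, 325 for SEC61G, a channel subunit, and 282 for HSP90B1, the ER form of HSP90, down to 0.502 for ERN1 and 0.144 for ERO1B, the second ER oxidase. CANX, the membrane-bound lectin chaperone, had 201 and HSPA5, the ER form of HSP70, 189. The disulfide isomerases P4HB, PDIA3, PDIA6 and PDIA4 followed with 94.9, 83.0, 70.5 and 64.3. The 7 tested degradation genes were lower than these isomerases, from 4.93 for DERL1 to 21.9 for HERPUD1, and DERL3, which was not tested, had 0.00557. Some chaperones and cofactors were as low, among them DNAJB9 (3.88), CRELD2 (6.42), DNAJC3 (7.33) and DNAJB11 (9.16). XBP1 had 42.0 and ATF6 8.14. ERO1B rested on 11 to 31 counts per library and ERN1 on 129 to 308, so that their changes are less precise than those of the chaperones. Summed over all members, the level was 7454 to 7959 CPM in untreated libraries and 7642 to 7818 CPM at 100 µM.

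At 100 µM members moved in both directions. The degradation genes HERPUD1 (1.41-fold) and SEL1L (1.25-fold), the transcription factor gene XBP1 (1.27-fold) and the sensor ERN1 (1.50-fold) rose, while the abundant chaperone HSP90B1 fell 1.27-fold and the isomerases PDIA3, PDIA4 and PDIA6 fell by less. Against 0 µM, 10 of the 31 tested members rose and 5 fell (edgeR adjusted p under 0.05), 15 in all, beside 27.3% of all genes tested (14.4% higher, 12.9% lower). The median log2 change of the members was 0.01 and that of all genes -0.01. By role, 3 of 11 chaperones rose and 1 fell (median log2 change 0.05), 0 of 6 genes of disulfide formation rose and 3 fell (-0.13), 2 of 4 genes of translocation and export rose and 1 fell (0.13), 2 of 7 tested degradation genes rose and 0 fell (0.00), and 3 of 3 sensors and transcription factors rose (0.35). The members were chosen with results of these data known, so these counts describe them and are not tested as a set.

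**Figure D1:**
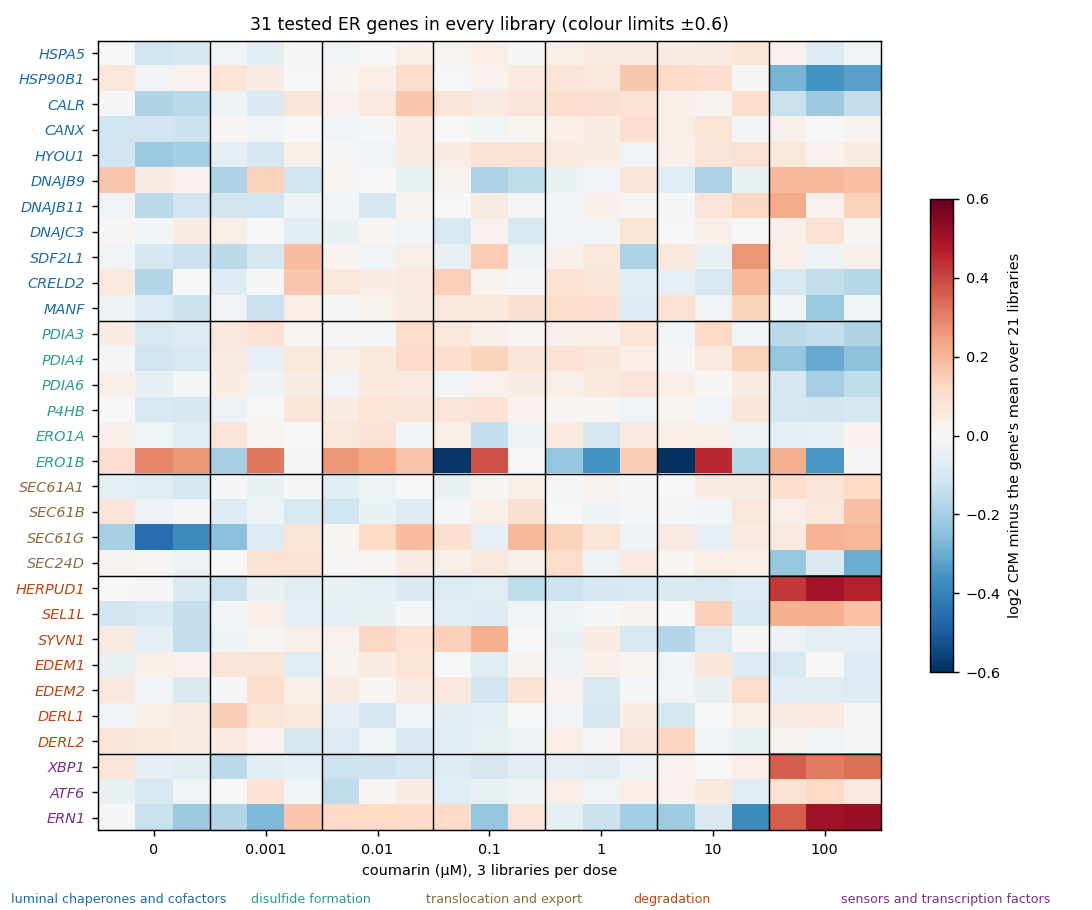
Level of each of the 31 tested members in every library, as log2 CPM minus the mean of that gene over the 21 libraries (colour, limited to ±0.6; columns are libraries by coumarin dose in µM, rows are genes in 5 roles). The 3 libraries at 100 µM stand out as high for HERPUD1, XBP1 and ERN1 and as low for HSP90B1, PDIA4 and SEC24D, and untreated libraries are low for HYOU1 and SEC61G.

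HERPUD1 encodes a membrane protein that organises the degradation complex and is known as an early target of ER stress (ENSG00000051108, GRCh38 chromosome 16, 56932048 to 56944863, plus strand). It had 116.5, 115.7 and 109.7 CPM in the untreated libraries and 156.3, 164.3 and 160.7 CPM at 100 µM. All 18 libraries at 0 to 10 µM lay at 105 to 116.5 CPM, below all 3 at 100 µM. Its log2 change was 0.49 ± 0.04 (SE; edgeR adjusted p = 3.75e-13). SEL1L, the scaffold that links the ligase SYVN1 to its substrates, had 70.9, 71.9 and 69.1 CPM untreated and 88.9, 89.2 and 86.5 CPM at 100 µM, a log2 change of 0.32 ± 0.05 (edgeR adjusted p = 7.24e-07). Its 100 µM libraries were above all others, the nearest being 84.7 CPM in a library at 10 µM. The ligase itself did not pass: SYVN1 had 41.4 ± 2.88 CPM untreated and 41.4 ± 0.359 CPM at 100 µM (SD, n = 3), with a 95% interval of the log2 change from -0.11 to 0.12. The mannosidase-like proteins EDEM1 and EDEM2, which mark misfolded glycoproteins, and the derlins DERL1 and DERL2 had log2 changes of -0.06, -0.06, 0.01 and -0.06, none past the threshold. Their 95% intervals lay between -0.19 and 0.11. SYVN1 shares 7.24% of its exon bases with the more abundant gene FAU on the same strand, and how the counting treated such reads is not given in the sources used here.

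XBP1, the transcription factor gene that IRE1α splices (ENSG00000100219, chromosome 22, 28794555 to 28800597, minus strand), had 138.9, 126.9 and 125.9 CPM untreated and 169.4, 163.5 and 165.5 CPM at 100 µM. The 18 libraries at 0 to 10 µM reached at most 138.9 CPM, so the groups did not overlap, and the log2 change was 0.35 ± 0.04 (edgeR adjusted p = 6.91e-09). ERN1, the IRE1α sensor with kinase and ribonuclease domains (ENSG00000178607, chromosome 17, 64039142 to 64130819, minus strand), had 5.55, 5.10 and 4.81 CPM untreated and 7.18, 7.95 and 8.04 CPM at 100 µM. The highest of the 18 other libraries had 6.27 CPM. The log2 change of ERN1 was 0.59, with an SE of 0.11 (edgeR adjusted p = 9.27e-05). ATF6, the sensor that is itself cleaved into a transcription factor, had 64.8, 62.5 and 65.5 CPM untreated and 71.1, 72.6 and 69.4 CPM at 100 µM. The ATF6 libraries at 100 µM were above the untreated ones but overlapped those at lower doses, which reached 71.0 CPM, and its log2 change of 0.14 ± 0.05 was near the threshold (edgeR adjusted p = 0.0224). The ATF6 call was lost without untreated replicate 2 (edgeR adjusted p = 0.121), without 100 µM replicate 1 (edgeR adjusted p = 0.0672) or replicate 2 (edgeR adjusted p = 0.112), and with upper-quartile scaling (edgeR adjusted p = 0.0792). Counts per gene give mRNA amount and show neither splicing of XBP1 nor cleavage of ATF6.

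Among the chaperones the abundant genes diverged. HSP90B1 (ENSG00000166598, chromosome 12, 103930107 to 103953645, plus strand) had 1434, 1349 and 1392 CPM untreated and 1130, 1069 and 1092 CPM at 100 µM. All 18 libraries at 0 to 10 µM, at 1349 to 1532 CPM, were above the 3 at 100 µM. The log2 change was -0.34 ± 0.04 (edgeR adjusted p = 2.09e-08). HSPA5, often read as the standard marker of ER stress, had 766, 706 and 713 CPM untreated and 782, 724 and 754 CPM at 100 µM, which overlap. Its log2 change was 0.05, with a 95% interval from -0.03 to 0.13 (edgeR adjusted p = 0.374). CALR had 1023, 909 and 920 CPM untreated and 941, 886 and 934 CPM at 100 µM, a log2 change of -0.05 that did not pass (edgeR adjusted p = 0.484).

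HYOU1, an HSP110-like nucleotide exchange factor for BiP, had 182, 169 and 171 CPM untreated and 207, 201 and 204.5 CPM at 100 µM, a log2 change of 0.23 ± 0.04 (edgeR adjusted p = 2.49e-05). CANX had 1197, 1203 and 1192 CPM untreated and 1330, 1301 and 1322 CPM at 100 µM, a log2 change of 0.14 (edgeR adjusted p = 0.00429). DNAJB11, a J-domain partner of BiP, had 53.8, 48.8 and 50.3 CPM untreated and 63.7, 55.5 and 59.9 CPM at 100 µM, a log2 change of 0.23 ± 0.05 (edgeR adjusted p = 0.000604). In HYOU1, CANX and DNAJB11 the 3 libraries at 100 µM were above the 3 untreated ones and overlapped the lower doses. The J-domain proteins DNAJB9 and DNAJC3, the cofactors SDF2L1 and CRELD2, and the secreted protein MANF had log2 changes of 0.11, 0.03, 0.10, -0.10 and -0.00121, none past the threshold. DNAJB9 overlaps THAP5 and PNPLA8 on the opposite strand, both with more counts, and with the strand setting not given in the sources used here its counts are uncertain.

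The isomerases PDIA4, PDIA6 and PDIA3 (also called ERp72, P5 and ERp57) form and rearrange disulfide bonds in new chains, and all of them fell. PDIA4 had 217, 200.6 and 204 CPM untreated and 186, 177 and 184 CPM at 100 µM, a log2 change of -0.18 ± 0.04 (edgeR adjusted p = 0.00066). PDIA6 had 307.5, 289 and 298.5 CPM untreated and 279.7, 262 and 270.0 CPM at 100 µM, a log2 change of -0.14 ± 0.04 (edgeR adjusted p = 0.00442). For PDIA4 and PDIA6 all 18 libraries at 0 to 10 µM were above the 3 at 100 µM. PDIA3 had 377, 342 and 345 CPM untreated and 326, 331 and 323 CPM at 100 µM, and its log2 change of -0.12 was close to the threshold (edgeR adjusted p = 0.0353). The PDIA3 call was lost without untreated replicate 1 (edgeR adjusted p = 0.245), without 100 µM replicate 1 (edgeR adjusted p = 0.0578) or replicate 3 (edgeR adjusted p = 0.08), with no filter on low counts (edgeR adjusted p = 0.104) and in limma on log2(FPKM + 1) (limma adjusted p = 0.0835). Its copy PDIA3P1 held 485 counts per library on average, 4.33% of those of PDIA3. P4HB, the founding isomerase of the family, and the oxidases ERO1A and ERO1B, which recharge the isomerases, did not pass, with log2 changes of -0.04, -0.00436 and -0.24. The interval of ERO1B ran from -0.82 to 0.33.

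In translocation and export, subunits of the channel rose and a coat protein fell. SEC61A1, the pore-forming subunit, had 266, 263 and 257 CPM untreated and 296, 291 and 299.9 CPM at 100 µM, a log2 change of 0.18 ± 0.04 (edgeR adjusted p = 0.000179). SEC61G, a small subunit, had 538, 449 and 473 CPM untreated and 641.5, 713 and 709 CPM at 100 µM, a log2 change of 0.50 with an SE of 0.09 (edgeR adjusted p = 0.000456). Libraries of SEC61A1 at 100 µM were above all 18 others, while those of SEC61G overlapped the lower doses. SEC61B, the other small subunit, had a log2 change of 0.08 that did not pass (edgeR adjusted p = 0.159). SEC24D, the COPII coat subunit that selects cargo, had 54.9, 54.8 and 52.9 CPM untreated and 46.2, 51.1 and 44.0 CPM at 100 µM, below all 18 other libraries, with a log2 change of -0.20 ± 0.05 (edgeR adjusted p = 0.00139).

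**Figure D2:**
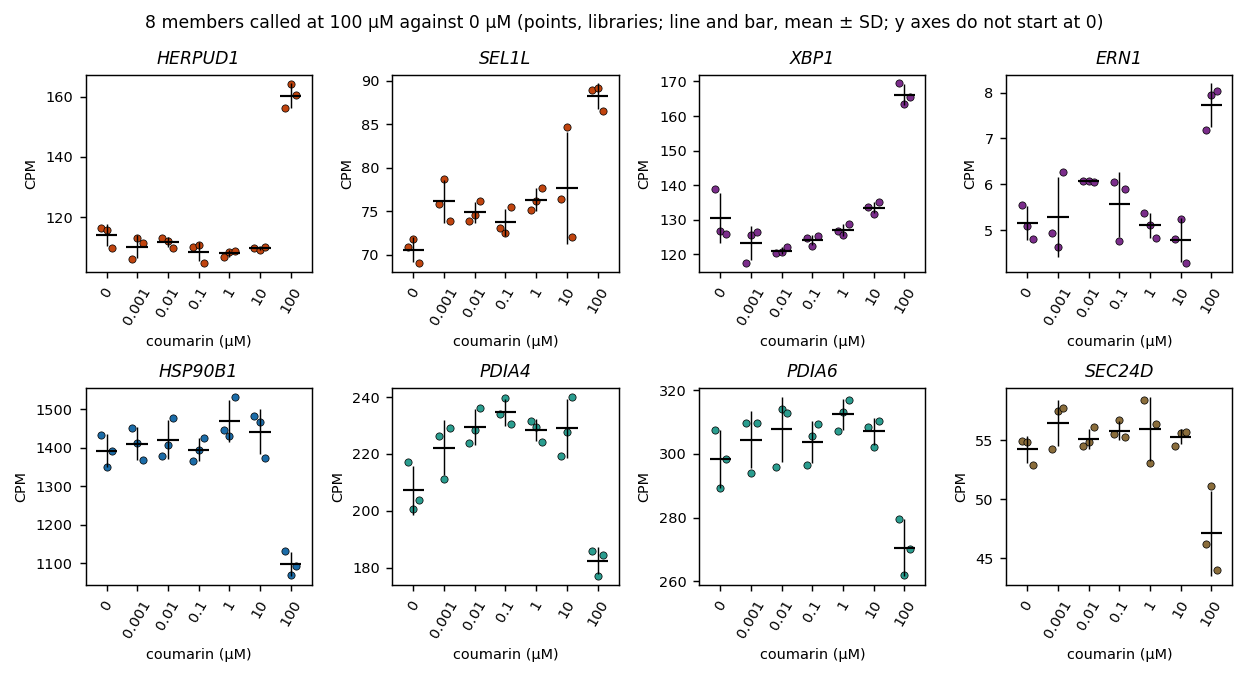
CPM of 8 members (vertical axes, which do not start at 0) at each coumarin dose in µM (horizontal axis); points are libraries, and line and bar are mean ± SD (n = 3). HERPUD1, SEL1L, XBP1 and ERN1 have their highest 3 libraries at 100 µM, and HSP90B1, PDIA4, PDIA6 and SEC24D their lowest.

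The change at 100 µM was also measured without the untreated libraries, against 10 µM and against the mean of the 12 libraries at 0.001 to 1 µM. All these comparisons share the 3 libraries at 100 µM. Against 10 µM, 5 members rose and 8 fell, 13 of 31, beside 18.3% of all genes (8.22% higher, 10% lower). HERPUD1 rose by 0.55, ERN1 by 0.70, XBP1 by 0.31, SEL1L by 0.19 and DNAJB9 by 0.29 on the log2 scale. HSP90B1 fell by 0.39, PDIA4 by 0.33, SEC24D by 0.23, CALR by 0.22, PDIA3 by 0.19, PDIA6 by 0.18, MANF by 0.15 and P4HB by 0.13. The weakest of these calls were MANF (edgeR adjusted p = 0.04) and P4HB (edgeR adjusted p = 0.013). MANF was lost without 100 µM replicate 2 (edgeR adjusted p = 0.344), 10 µM replicate 3 (edgeR adjusted p = 0.176) or 10 µM replicate 1 (edgeR adjusted p = 0.116), and P4HB without 10 µM replicate 3 (edgeR adjusted p = 0.0706).

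Against the mean of 0.001 to 1 µM, 9 members rose and 9 fell, 18 of 31, beside 33.1% of all genes (16.6% higher, 16.5% lower). Of 11 chaperones 4 fell and 2 rose (median log2 change -0.000153), and 4 of 6 genes of disulfide formation fell and 0 rose. The degradation genes HERPUD1 and SEL1L rose with 0 of 7 falling, and XBP1, ATF6 and ERN1 all rose. CALR, at 972 to 1158 CPM in the 12 libraries and 886 to 941 CPM at 100 µM, had a log2 change of -0.22 (edgeR adjusted p = 4.92e-06). PDIA4 and HSP90B1 had -0.33 and -0.38 (edgeR adjusted p = 2.08e-10 and 6.79e-12), and HERPUD1 and XBP1 had 0.55 and 0.42 (edgeR adjusted p = 2.23e-18 and 1.95e-14). P4HB had 484.9, 483.6 and 486 CPM at 100 µM, below the 511 to 555 CPM of the 12 libraries and below the untreated range of 487.5 to 521 CPM, with a log2 change of -0.15 (edgeR adjusted p = 0.000218). MANF had 86.1, 74.6 and 85.6 CPM at 100 µM against 79.2 to 93.9 CPM, which overlap (log2 change -0.11, edgeR adjusted p = 0.0487). CRELD2 had 30.5 to 32.2 CPM at 100 µM against 32.6 to 38.6 CPM (log2 change -0.18, edgeR adjusted p = 0.00913).

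DNAJB9 and SEC61B were among the members that rose against these 12 libraries. DNAJB9, whose product (ERdj4) holds IRE1α in check, had 13.1, 13.1 and 12.9 CPM at 100 µM against 10.0 to 12.6 CPM, above every library at 0 to 10 µM by a narrow gap, with a log2 change of 0.23 ± 0.06 (edgeR adjusted p = 0.00352). SEC61B had 82.7, 84.3 and 91.2 CPM against 74.2 to 86.0 CPM, which overlap, with a log2 change of 0.13 (edgeR adjusted p = 0.0038). SYVN1 passed in the test of 7 groups but not here, at 41.8, 41.2 and 41.2 CPM at 100 µM against 40.1 to 49.9 CPM (log2 change -0.09, edgeR adjusted p = 0.106). Of the calls made against 0 µM, those of CANX, HYOU1 and SEC61G were not made here: CANX had -0.000153 (edgeR adjusted p = 0.998), HYOU1 0.03 (0.487) and SEC61G 0.11 (0.244). Over all doses, 12 of 31 members had all 3 libraries at 100 µM outside the range of the 18 at 0 to 10 µM, beside 15.7% of all genes tested. The 6 above were DNAJB9, SEC61A1, HERPUD1, SEL1L, XBP1 and ERN1 (7.66% of all genes), and the 6 below were HSP90B1, PDIA3, PDIA4, PDIA6, P4HB and SEC24D (8.07%).

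**Figure D3:**
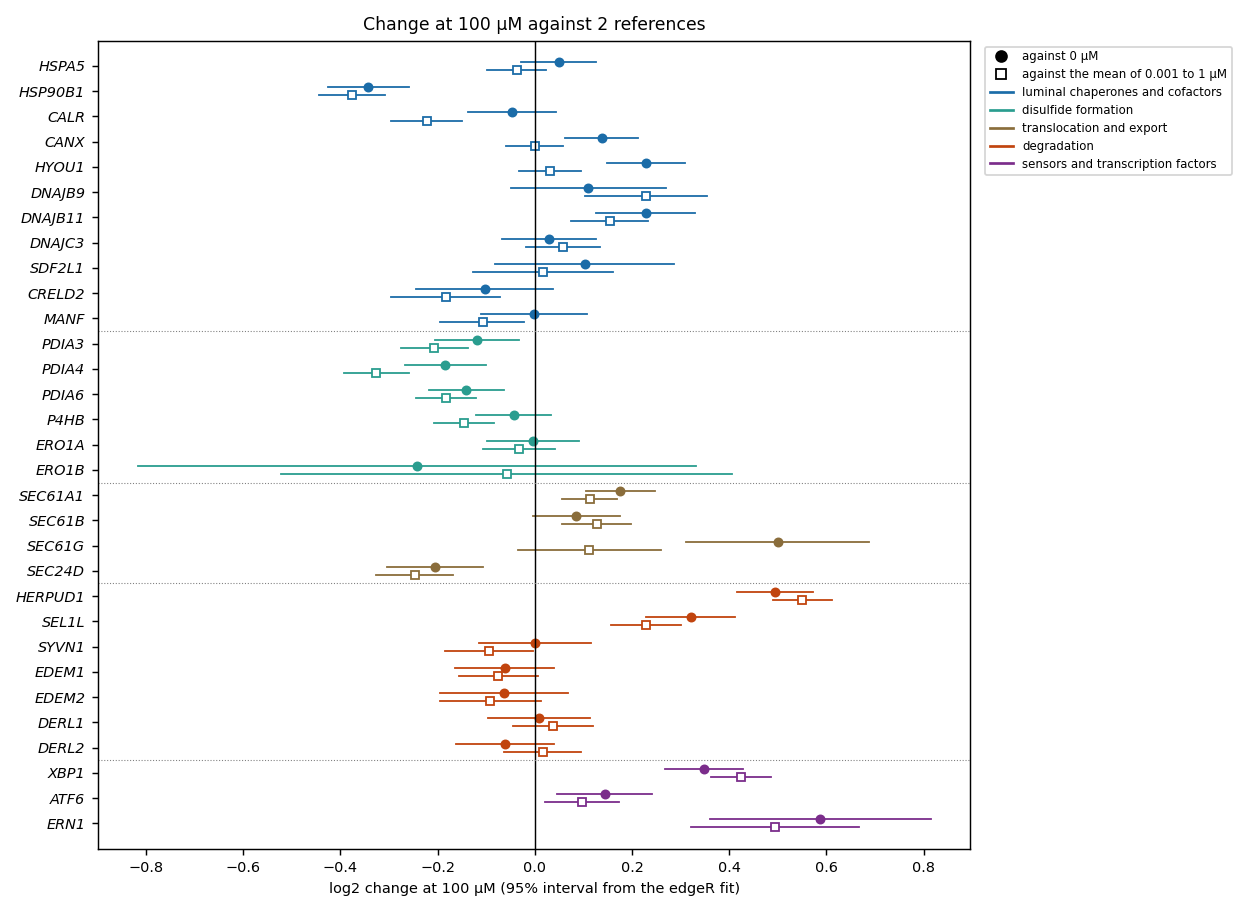
Log2 change at 100 µM with its 95% interval (horizontal axis) for each of the 31 tested members, against 0 µM (filled circles) and against the mean of 0.001 to 1 µM (open squares), coloured by role. HERPUD1, SEL1L, XBP1 and ERN1 lie above 0 and HSP90B1, PDIA4, PDIA6 and SEC24D below 0 with both references, while the intervals of CANX, HYOU1 and SEC61G lie above 0 against 0 µM and include 0 against the lower doses.

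At lower doses the members called were chaperones, isomerases and SEC61G, all higher than in untreated cells, and no degradation or sensor gene was called at any of them. At 0.001 µM no member passed (background 1.53%, higher 1.34%, lower 0.192% by edgeR; DESeq2 called 3 members). At 0.01 µM 6 members rose (background 5.86%, higher 4.77%, lower 1.09%), at 0.1 µM 6 (6.45%, higher 5.02%, lower 1.43%), at 1 µM 4 (2.01%, higher 1.57%, lower 0.431%) and at 10 µM 6 (2.62%, higher 1.74%, lower 0.874%), and none fell. CALR, CANX, HYOU1 and SEC61G rose at each of these 4 doses, PDIA4 at 0.01, 0.1 and 10 µM, P4HB at 0.01 and 0.1 µM, and HSPA5 at 10 µM. All these comparisons share the 3 untreated libraries.

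HYOU1 had 201, 208 and 210.2 CPM at 10 µM against 182, 169 and 171 CPM untreated, a log2 change of 0.25 ± 0.04 (edgeR adjusted p = 0.000263). CALR had 1052, 1048 and 1108 CPM at 10 µM, a log2 change of 0.17 (edgeR adjusted p = 0.0307), and SEC61G 641, 597 and 643 CPM, a log2 change of 0.37 (edgeR adjusted p = 0.0396). For HYOU1 and CANX every one of the 18 treated libraries was above every untreated one, and for SEC61G 17 of 18. The same held for SEL1L (18 of 18) and SEC61A1 (17 of 18), which among single doses were called only at 100 µM. The share of all genes tested that separate in this way was not counted, so it is not read as a trait of these members. The lowest treated library of SEL1L had 72.0 CPM and the highest untreated one 71.9 CPM. HSPA5 had 790, 796 and 813 CPM at 10 µM, a log2 change of 0.14 (edgeR adjusted p = 0.0444). In CALR, HYOU1, SEC61G and HSPA5 the highest untreated library was replicate 1. For HYOU1, SEC61G and HSPA5 the untreated replicates 2 and 3 were the lowest of all 21. With 1 library left out, the calls of HSPA5, CALR and SEC61G at 10 µM were each kept in 1 of 6 fits. PDIA4 was kept in 2 of 6, CANX in 4 and HYOU1 in all 6. At 0.1 µM HYOU1, PDIA4 and SEC61G were kept in all 6 such fits, CALR in 3, P4HB in 2 and CANX in 1. With untreated replicate 1 as the only untreated library, no member was called at 10 µM by edgeR, and without untreated replicate 3 the counts at 0.01, 0.1, 1 and 10 µM were 3, 3, 0 and 1. Against the mean of 0.001 to 1 µM, no member was called at 10 µM either (background 2.62%, higher 0.725%, lower 1.9%).

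**Figure D4:**
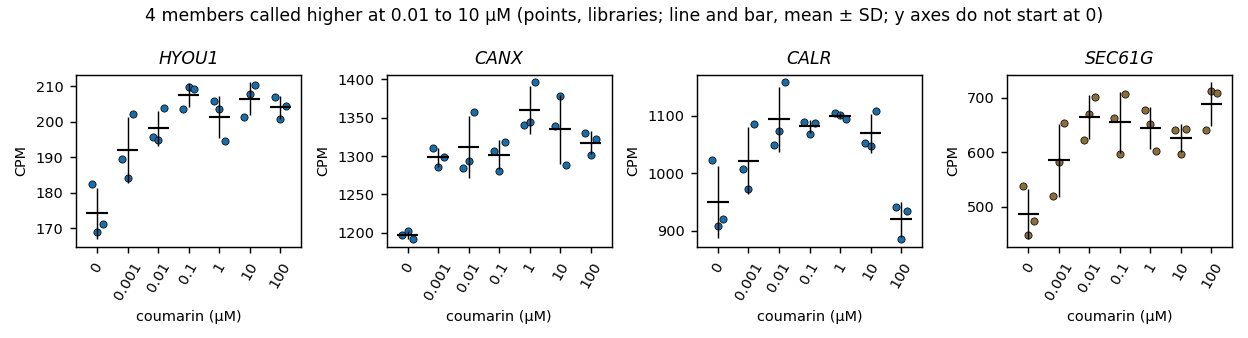
CPM of HYOU1, CANX, CALR and SEC61G (vertical axes, which do not start at 0) at each coumarin dose in µM (horizontal axis); points are libraries, and line and bar are mean ± SD (n = 3). The untreated libraries are lowest for HYOU1 and CANX, and CALR is as low at 100 µM as in untreated cells.

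Averaged over the 6 doses and set against 0 µM, 6 members rose and 0 fell (background 8.43%, higher 5.74%, lower 2.69%). They were SEC61G (log2 change 0.40), HYOU1 (0.21), CANX (0.14), CALR (0.14), SEL1L (0.14) and SEC61A1 (0.09). The SEC61A1 call was near the threshold (edgeR adjusted p = 0.0327). It was kept in 8 of 21 fits with 1 library left out, where HYOU1 and CANX were kept in all 21. It was also lost with upper-quartile scaling (edgeR adjusted p = 0.15) and with no filter on low counts (edgeR adjusted p = 0.0723). The count of members called was 3 without untreated replicate 3 and 10 without untreated replicate 1. HERPUD1, XBP1 and HSP90B1, with values of 0.04, 0.01 and -0.03, did not pass, their change being at 100 µM.

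Over the 18 treated libraries the slope on log10 dose was positive and past the threshold for 6 members and negative for 4, 10 of 31 (background 21.5%; 10% higher, 11.5% lower). Per 10-fold dose, the log2 slope was 0.08 for HERPUD1, 0.07 for XBP1, 0.04 for DNAJB11, 0.04 for SEL1L, 0.03 for SEC61B and 0.02 for SEC61A1. It was -0.04 for PDIA4, -0.04 for SEC24D, -0.03 for PDIA3 and -0.03 for P4HB. Without the 100 µM group no slope passed, and without 100 µM replicate 3 only 3 did. Over the doses from 0.001 to 10 µM, HERPUD1 had 105 to 113.2 CPM and a slope of -0.006. In the test of all 7 groups at once, 20 of 31 members passed (background 30%). Those that did not were HSPA5, DNAJC3, SDF2L1, CRELD2, ERO1A, ERO1B, EDEM1, EDEM2, DERL1, DERL2 and ATF6; the edgeR adjusted p of HSPA5 was 0.0534.

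Set against HSP90B1 within a library, HERPUD1 and XBP1 were higher at 100 µM, and so was HERPUD1 set against HSPA5. This measure needs no scaling between libraries, and the choice of genes was made with their values known, so no test is given and the ratios describe these genes, not their role groups. There were 7.10 to 8.58 HERPUD1 counts per 100 HSP90B1 counts in the 18 libraries at 0 to 10 µM and 13.8 to 15.4 in the 3 at 100 µM. XBP1 had 8.10 to 9.83 counts per 100 HSP90B1 counts at 0 to 10 µM and 15.0 to 15.3 at 100 µM. Per 100 HSPA5 counts, HERPUD1 had 13.5 to 16.4 and 20 to 22.7. In all of these the 100 µM libraries were apart from the rest. Summed by role, the degradation genes had 371 ± 7.42 CPM untreated, 371 ± 6.45 CPM at 10 µM and 431 ± 5.65 CPM at 100 µM (SD, n = 3), HERPUD1 and SEL1L being the members that rose. The sensors and transcription factors had 200 ± 8.11, 205 ± 2.21 and 245 ± 2.42 CPM. The genes of disulfide formation went from 1478 ± 58.3 CPM untreated to 1561 ± 18.7 CPM at 10 µM and 1383 ± 11.6 CPM at 100 µM, and the chaperones from 4713 ± 151 to 5144 ± 36.7 and 4575 ± 117 CPM. The chaperone sums untreated (4599 to 4884 CPM) and at 100 µM (4451 to 4683 CPM) overlap, and HSP90B1 alone went from 1392 to 1097 CPM.

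Other genes of the same pathway, listed by function, had calls in both directions at 100 µM against 0 µM, to be read beside the 27.3% of all genes called (14.4% higher, 12.9% lower). Of 16 further folding genes 6 rose and 1 fell (median log2 change 0.05), among them GANAB, the catalytic subunit of glucosidase II (0.26; edgeR adjusted p = 5.73e-07), the proline isomerase PPIB (0.18), and the glycoprotein folding sensor UGGT1 (0.16), while LMAN1, a cargo receptor for glycoproteins, fell by 0.20 (edgeR adjusted p = 6.02e-05). Of 18 translocation and transport genes 5 rose and 4 fell (0.05), with SEC63, a partner of the SEC61 channel, at 0.29 and the signal peptidase subunit SPCS1 at 0.27, against -0.23 for SEC24A. Of 16 further degradation genes 3 rose and 2 fell (0.04), with the ubiquitin-conjugating enzyme UBE2G2 at 0.20 and the lectin ERLEC1 at -0.20. Of 8 further sensors and processing enzymes 6 were tested. EIF2AK3, which encodes PERK, fell by 0.20 (edgeR adjusted p = 0.0221) and the others did not pass. Against the mean of 0.001 to 1 µM, 3 of the 16 folding genes rose and 5 fell (background 16.6% higher, 16.5% lower). LMAN1 was among the 5, while GANAB, PPIB and UGGT1 were not called. Against 10 µM, GANAB rose and 2 fell, LMAN1 among them (background 8.22% higher, 10% lower). EIF2AK3 was called with neither reference. Of the 6 tested sensors and processing enzymes, 0 were called against 10 µM and 3 fell against the mean of 0.001 to 1 µM.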

How the data were processed

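The authors deposited raw counts per gene as whole numbers and a table of FPKM, values scaled by gene length and library size. Per the submitters' processing notes, HISAT2, DESeq2 and GRCh38 were used, with no version stated. Which counter, strand setting and rule for overlapping genes applied is not given in the sources. Poly(dT) beads were used to purify RNA, per the labels.

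The counts of the 21 libraries entered a single edgeR 4.0.16 model in R 4.3.3 (filterByExpr, TMM, robust quasi-likelihood test; 14 residual degrees of freedom). P-values are two-sided except in the 7-group test and were adjusted by Benjamini-Hochberg over all genes tested, 16699 in group comparisons and 16522 for the slope. "Rose", "fell" and "called" mean an adjusted p under 0.05. CPM use TMM-scaled library sizes. SE and 95% intervals come from the fit. The common biological coefficient of variation was 4.49%. A count of 0 allows up to 3 counts, 0.0693 to 0.112 CPM, for counting error only. No replicates were alike within sampling noise (smallest chi-square per gene 2.31). P-values measure the spread between these libraries.

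All members are accounted for. Of each further list up to 4 genes with the smallest p at 100 µM may be named, and PPP1R15A and HSP90AA1 are named besides. Members and lists were chosen with earlier results of these data known. Alternatives were RLE and upper-quartile scaling, no filter, 1 CPM in 3 libraries, a replicate block, DESeq2 1.42.0, limma 3.58.1 on log2(FPKM + 1), an adjusted p under 0.01, only the compared groups, other references, the slope without 100 µM, and leaving out each library. Scripts were tested on simulated counts. Gene coordinates match GENCODE 29 for all 32 members.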

Additional observations from a re-analysis of the deposited data

How the results depend on the processing

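At 100 µM against 0 µM, HERPUD1, SEL1L, XBP1, ERN1, HSP90B1, PDIA4, PDIA6, SEC24D and SEC61A1 passed under all 11 other settings and with each of 6 libraries left out. The count of 15 members ranged from 13 to 15 with 1 library left out, was 14 with upper-quartile scaling, and was 11 with untreated replicate 1 as the only untreated library. With that library alone, CANX (adjusted p = 0.0681), DNAJB11 (0.179), SEC61G (0.0724) and ATF6 (0.232) were not called by edgeR. Upper-quartile scaling moved the share of called genes that were higher from 52.9% to 41.4%, and the median of all genes from -0.00793 to -0.0403. On log2(FPKM + 1), the change of ERN1 was 0.21, since the pseudocount damps low genes by construction.

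With 1 library left out, members called ranged from 0 to 2 at 0.001 µM, 2 to 6 at 0.01 µM, 3 to 8 at 0.1 µM, 0 to 6 at 1 µM, 1 to 7 at 10 µM, 11 to 14 for 100 against 10 µM, 16 to 21 for 7 groups, 3 to 10 for the mean of treated groups and 3 to 13 for the slope. The lowest counts came without untreated replicate 3 (0.1, 1 and 10 µM and the mean), untreated replicate 2 or 0.1 µM replicate 1 (0.1 µM), 0.01 µM replicate 3 (0.01 µM), 10 µM replicate 2 (10 µM), 10 µM replicate 3 (100 against 10 µM) and 100 µM replicate 3 (7 groups and slope). DESeq2 called 3 members at 0.001 µM. At an adjusted p under 0.01, 3 were called at 0.01 µM, 1 at 10 µM and 2 by slope. At 10 µM, 1 was called with upper-quartile scaling, 2 with only those groups, 0 against the mean of 0.001 to 1 µM and 0 against untreated replicate 1. The slope without the 100 µM group called 0. Among members called in the main fit, the sign turned against the mean of 0.001 to 1 µM for CALR (-0.00593) and SEC61G (-0.0221) at 10 µM. With the same reference it turned for CANX (-0.000153) at 100 µM. Without the 100 µM group the sign turned for the slopes of PDIA4 (0.00825) and HERPUD1 (-0.00598). Members not called in the main fit also changed sign, among them SYVN1 at 100 µM, and are not listed. The cause was not tested. Of 2074 alternative values of single members, 1833 kept their side of the threshold, 230 no longer passed, 6 newly passed and 5 reversed. Direction was not compared where neither the main nor the alternative value passed, and the 7-group test has no direction.

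Replicate numbers did not pair the libraries: 63 correlations between same-numbered libraries ran from -0.139 to 0.127, with 1 over 0.1, and 9 of 21 libraries correlated best with their own number. With the replicate number as a block, 0, 6, 5, 4, 4 and 15 members were called at the 6 doses in rising order, 20 for 7 groups, 13 for 100 against 10 µM, 6 for the mean and 9 for the slope.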

Other observations

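Of 10 further genes listed as ATF4 and genes linked to it, 9 rose at 100 µM against 0 µM and 0 fell, with a median log2 change of 1.19, beside 14.4% of all genes higher and 12.9% lower. ATF4 is known to be induced by several eIF2α kinases, of which PERK is the one in the ER, and their activity was not measured here. TRIB3, a pseudokinase, had 60.5 ± 1.12 CPM untreated and 158 ± 2.24 CPM at 100 µM (SD, n = 3), a log2 change of 1.38 (edgeR adjusted p = 3.48e-25). ASNS, asparagine synthetase, went from 1.54 ± 0.138 to 10.8 ± 0.857 CPM, a log2 change of 2.81 (edgeR adjusted p = 2.91e-18), and SESN2, a stress-induced sestrin, had 1.25. The exception was PPP1R15A, which encodes the phosphatase subunit GADD34, at -0.06 (edgeR adjusted p = 0.551). As given above, EIF2AK3, which encodes PERK, fell against 0 µM. It was not called against 10 µM or against the mean of 0.001 to 1 µM.

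Of 10 chaperones of the cytosol and mitochondria, 6 rose and 0 fell at 100 µM against 0 µM, with a median log2 change of 0.18, beside 14.4% of all genes higher and 12.9% lower. HSPA8, the constitutive HSP70, had 1034 ± 36.2 CPM untreated and 1334 ± 54.6 CPM at 100 µM, a log2 change of 0.37 (edgeR adjusted p = 5.01e-08), where its ER relative HSPA5 did not pass. HSPH1, an HSP110 exchange factor, had 0.20. HSPA1A and HSPA1B had 0.51 and 0.58, which is uncertain because these near-identical copies share reads. Against 10 µM, 4 of the 10 rose and 1 fell (background 8.22% higher, 10% lower). Against the mean of 0.001 to 1 µM, 6 rose and 1 fell (background 16.6% higher, 16.5% lower). In both, the gene that fell was HSP90AA1.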
